A study of Mus musculus with 6 samples.

Results

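The comparison described here sets P19 cells that express AICD against P19 cells that carry the empty pCDNA vector, at the end of a neural differentiation course. It comprises the 2 differentiated arrays of 6 in the study, 1 array for each line, chosen by their titles alone. P19 is a mouse embryonal carcinoma line. Both lines were aggregated for 4 days in medium with 5e-07 M all-trans-retinoic acid and then kept for 2 further days after replating, on plain culture dishes or on disks coated with poly-L-lysine. The vector line carries the empty plasmid and is the control. The labels do not say whether a line was a single clone or a pool, which promoter drives AICD, or whether the differentiated RNA came from plain dishes or coated disks. The other 4 arrays, from undifferentiated and aggregated cells of the same lines, are used below to place the differences in the course.

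AICD is the intracellular end of the amyloid precursor protein, APP, set free by gamma-secretase once alpha- or beta-secretase has removed the outer part. It can enter the nucleus with the adaptor Fe65 (Apbb1) and the acetyltransferase Tip60 (Kat5), and the same protease releases the intracellular domain of Notch. P19 cells given retinoic acid in aggregates are known to shut off Oct4, pass through a neural progenitor stage with Hox gene expression, and form neurons, with glia and fibroblast-like cells appearing beside them.

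The values are normalized log2 signals, that is log2 of the processed spot signal minus log2 of its 75th percentile on the array, so that 0 is the 75th percentile of the spots. A difference is the value on the AICD array minus the value on the vector array, and a difference of 1 is 2-fold. With 1 array a side there is no replicate, no test and no p-value, and the differences describe these 2 RNA samples. Technical spread within the arrays could be measured. For 155 probes spotted repeatedly and detected on both arrays, the single-spot difference had a median SD of 0.0649. Over 4432 genes with at least 2 detected probes, the SD of the difference between probes of a gene had a median of 0.0883. Neither value contains the spread between cultures. Both arrays lay on the same slide, 65.9% of the spots on the vector array and 65.2% on the AICD array were well above background, and 0 spots were saturated.

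A gene was analysed, and is called measured below, if a probe for it passed the scanner software's test for signal well above background on 2 or more of the 6 arrays. The probe also needed a value on all 6 arrays once spots flagged as outliers were left out. Of 13381 such genes, 12282 were well above background on both arrays, 602 on 1 of them and 497 on neither. Of the genes detected on both, 6348 were higher in AICD cells and 5934 (48.3%) lower by any amount. This is the share to set beside the counts of higher and lower list members below. At least 2-fold higher in AICD cells were 567 genes, 4.62% of those detected on both arrays, and at least 2-fold lower were 486, or 3.96%. Of 931 genes for which the authors' deposited table gave a value on both arrays, 103 were 2-fold higher and 175 lower in its centring. The table leaves small values blank, so these 931 are a selected part of the genes. At least 10-fold apart were 43 genes on the higher side (0.35%) and 40 on the lower side (0.326%). With normexp background correction the counts were 346 higher and 320 lower at 2-fold and 20 and 17 at 10-fold. The median difference over all genes was 0.01, with quartiles of -0.24 and 0.27, and the arrays correlated across genes with Pearson's r of 0.969, where genes are not independent replicates. Of 275 genes at least 2-fold apart that had another detected probe, 272 had the same sign on every other probe and 188 were at least 2-fold apart on every other probe.

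**Figure D1:**
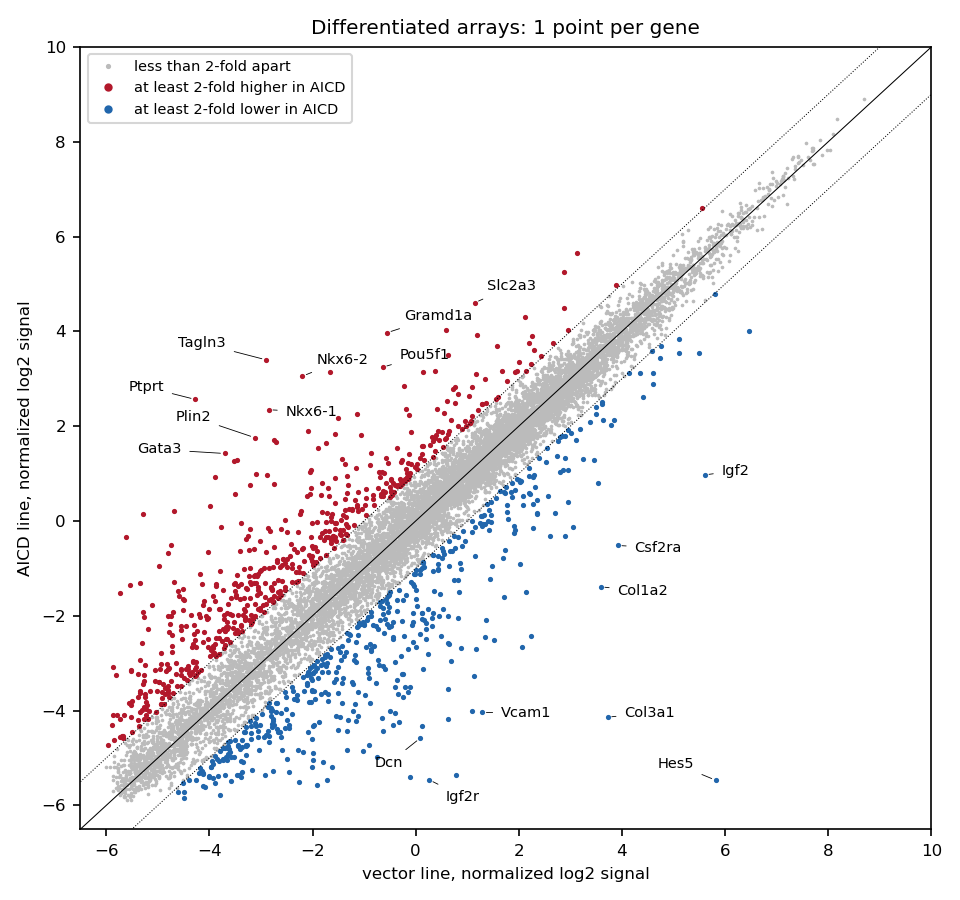
Each point is 1 of the 12282 genes detected on both differentiated arrays, with the normalized log2 signal of the vector line on the x axis and of the AICD line on the y axis; dotted lines mark 2-fold. Hes5 lies at 5.82 on the vector axis and -5.47 on the AICD axis, and Ptprt at -4.28 and 2.57.

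Hes5, a basic helix-loop-helix repressor and a classical target of Notch in neural progenitors, was the gene farthest apart. The normalized log2 signal of Hes5 was 5.82 on the vector array and -5.47 on the AICD array, a difference of -11.28, or 2493-fold lower. The gene was thus among the brighter genes in vector cells and close to the detection limit in AICD cells, where the lowest signal called well above background was -5.92. Dtx1, a Notch regulator of the Deltex family, was at 3.03 in vector cells and not well above background in AICD cells, at least 496-fold lower. Both genes were already lower in AICD cells before replating. Hes5 differed by -3.13 when undifferentiated and was at least 3041-fold lower when aggregated. Dtx1 differed by -4.91 when undifferentiated and was at least 74.4-fold lower when aggregated. The promoter of Hes5 is shown because it carries sites of the kind that the Notch effector RBPJ is known to bind. In the 300 bases from 250 before to 50 after the annotated start (RefSeq, GRCm38.p6, chr4:154960673-154960972, plus strand), the letters GTGGGAA occur 2 times over both strands, in capitals here, once as the reverse complement.

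Hes5: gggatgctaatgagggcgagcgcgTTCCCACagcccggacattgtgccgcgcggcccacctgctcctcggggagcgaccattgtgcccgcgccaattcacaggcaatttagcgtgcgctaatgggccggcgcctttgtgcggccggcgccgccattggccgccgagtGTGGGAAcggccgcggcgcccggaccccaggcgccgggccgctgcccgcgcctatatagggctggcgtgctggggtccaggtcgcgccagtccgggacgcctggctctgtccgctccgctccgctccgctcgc

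The same search was made with 1 listed start for each gene, the most 5' one on its strand. GTGGGAA was found on either strand in 6.02% of the 9840 promoters matched to detected genes. Over all 32851 promoters listed it was present in 6.38%. It was present in 7 of 32 matched promoters among the genes at least 10-fold lower, those of Hes5, Rab33a, Asic2, Igf2, Slc6a5, Gsn and Tshz2. Among the genes at least 10-fold higher it was present in 2 of 37, those of Plin2 and Slc35d3. In the wider groups it was present in 31 of 368 promoters (8.42%) of genes at least 2-fold lower. For genes at least 2-fold higher it was present in 25 of 431 (5.80%). Hes5, whose promoter was shown for these letters, is itself among the 7, and no difference between the groups was tested. A match describes the letters in the window and not a bound site.

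The other Notch pathway genes lay on both sides. Of 29 measured members 24 were detected on both arrays, 10 higher and 14 lower, with 4 higher and 5 lower by 2-fold or more, and the median was -0.06 (0.00 when the probes of a gene were averaged). Hes1, another Hes repressor, was at -3.67 in vector and -2.29 in AICD cells, 1.38 higher. Hey1, a related repressor, was at 1.21 and 2.34, 1.13 higher, while Hey2 was detected on the vector array only, at -4.93, and at least 2.00-fold lower in AICD cells. Among ligands, Dll1 was at 3.75 on both arrays, Dll3 was at 3.61 and 2.48 (-1.13), and Jag1 at 0.02 and 1.09 (1.07). The receptor Notch1 differed by -0.35 and Notch3 by 0.52, and Rbpj itself by -0.57. Id1 and Id3, inhibitors of basic helix-loop-helix factors that respond to BMP, were lower (-1.43 and -1.90).

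Pluripotency genes were the list with the highest median. Of 34 listed genes 27 were measured and 22 detected on both arrays, 12 at least 2-fold higher, 1 at least 2-fold lower, with a median difference of 1.28 against 0.01 over all genes. The median was 0.70 with normexp background correction and 1.13 with all probes of a gene averaged. Pou5f1, which encodes Oct4, was at -0.64 on the vector array and 3.25 on the AICD array, a difference of 3.88. Gdf3, a TGF-beta family ligand of embryonal carcinoma cells, was at -2.71 and 1.66, a difference of 4.37. Nr0b1, a nuclear receptor (Dax1) of embryonic stem cells, was at -3.98 and 0.32, a difference of 4.30. Each of these genes lay below the 75th percentile in vector cells and above it in AICD cells. Otx2, a homeobox factor of the epiblast and forebrain, was at -3.51 and 0.56, a difference of 4.07. Lin28a, an RNA-binding protein that blocks let-7 maturation, was at -2.06 and 1.02 (3.08), and its relative Lin28b at -0.43 and 0.80 (1.24). The de novo DNA methyltransferase Dnmt3b was at -1.43 and 1.31, a difference of 2.74.

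The rest of the list was more mixed. Sall4, a zinc finger factor of the Oct4 network, differed by 3.98 on the probe used and by 0.36 on its other probe. Sox2, which pluripotent cells share with neural progenitors, was at 1.88 and 2.47 (0.58), and Klf2 differed by 0.13. Klf4 went the other way, at -0.70 in vector and -2.10 in AICD cells (-1.40). Foxd3 was higher by 2.45, Fbxo15 by 1.84, Esrrb by 1.77 and Lefty1 by 1.32, all 4 below -2 on both arrays. Nanog was not analysed here. The undifferentiated arrays give a scale for these levels: Pou5f1 was at 6.37 and 6.48 there, Gdf3 at 3.52 and 4.26 and Lin28a at 4.58 and 3.88, so that in differentiated AICD cells each remained below its undifferentiated signal.

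**Figure D2:**
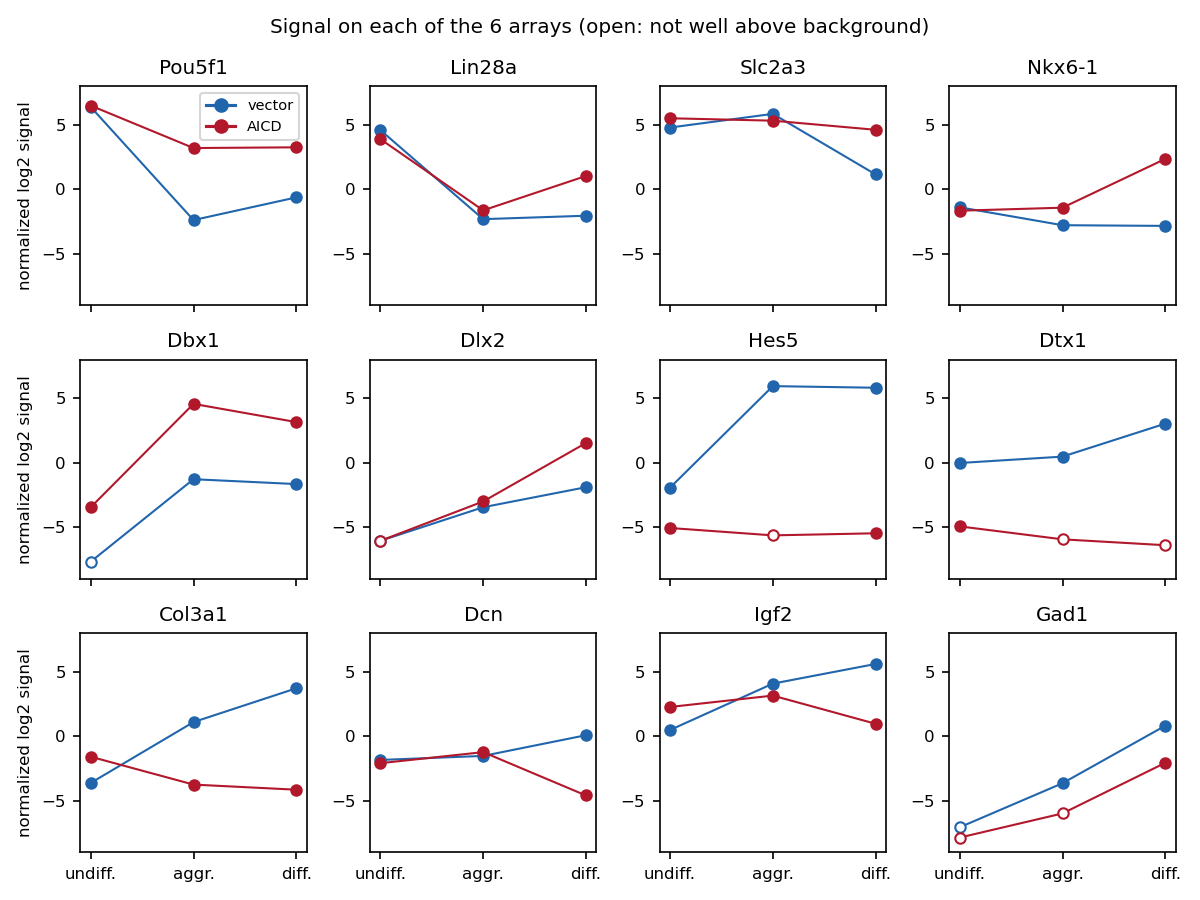
Normalized log2 signal (y axis) of 12 genes on the vector (blue) and AICD (red) arrays in the undifferentiated, aggregated and differentiated state, 1 array per point, open where the probe was not well above background. Pou5f1 is at -0.64 against 3.25 in the differentiated pair and Dcn at 0.09 against -4.58.

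Genes of proliferation and of glycolysis were modestly higher in AICD cells. All 42 measured cell cycle genes were detected, 33 were higher and 9 lower, 3 higher and 1 lower by 2-fold or more, with a median of 0.35. Bub1, a checkpoint kinase of mitosis, was at 0.61 and 2.52 (1.91, and 0.46 on its other probe), and the replication helicase subunit Mcm3 at 1.05 and 2.06 (1.01). Cdkn1c, an inhibitor of the cell cycle, was at -3.69 and -4.80 (-1.11). The proliferation marker Mki67 differed by 0.20 and Pcna by 0.46, which is under 2-fold in each case. The inhibitor Cdkn2a was detected in AICD cells only, at -2.36, at least 12.5-fold higher.

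Of 33 hypoxia and glycolysis genes, all detected, 21 were higher, 4 of them at least 2-fold, and 2 were at least 2-fold lower, with a median of 0.35 (0.17 with normexp correction). The glucose transporters stood out: Slc2a3 was at 1.15 in vector and 4.60 in AICD cells, a difference of 3.46. Slc2a1 was at 3.12 and 5.66, a difference of 2.54. Hexokinase 2 (Hk2), the first enzyme of glycolysis in many growing cells, was at 0.77 and 2.83 (2.06), and lactate dehydrogenase A (Ldha) at 2.87 and 4.49 (1.61). Gapdh, often used as a reference, was at 5.28 and 6.14 (0.86). On the lower side were Eno2, the neuronal enolase, at 0.50 and -2.42 (-2.91), and Pfkfb4 (-1.74). As background to these shifts, 16 of 18 reference genes and 32 of 34 ribosomal protein genes were higher in AICD cells, with medians of 0.22 and 0.16 and 0 members at least 2-fold apart.

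The defining neuron markers were present in both lines. Tubb3, Map2, Dcx, Elavl3, Elavl4, Stmn2, Snap25 and Syt1 were all well above background on both arrays, and all 8 were lower in AICD cells, with differences from -0.59 to -0.11 on the probes used. Other probes gave -0.67 for Dcx and -0.64 for Elavl4. Tubb3, the neuronal beta-tubulin, was at 5.87 in vector and 5.28 in AICD cells (-0.59), and Dcx, a microtubule protein of young neurons, at 5.26 and 4.89 (-0.37). Over the neuronal cytoskeleton list, 21 of 24 detected members were lower but 0 at least 2-fold lower, and the median was -0.39. The exceptions were the neurofilament genes Nefl (3.17 and 3.92, 0.75 higher) and Nefm (2.61 and 3.21, 0.60 higher) and Prph, which encodes peripherin (-4.94 and -3.03, 1.91 higher). Synaptic vesicle and granule genes had 28 of 30 members lower, 4 at least 2-fold, with a median of -0.43.

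Single neuronal genes were farther apart than the lists. Rbfox3, the splicing factor recognised as NeuN, was at 1.35 in vector and -2.08 in AICD cells, a difference of -3.44, with -3.25 on another probe. The granule protein gene Scg5 differed by -1.50 and the synapsin gene Syn2 by -1.33. Of 13 neuronal RNA-binding genes 11 were lower and 2 of them at least 2-fold, with a median of -0.41, and the Elav gene Elavl2 was at 4.37 and 3.76 (-0.60). In this bulk RNA, fewer cells of a type and less RNA per cell cannot be told apart.

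Genes for inhibitory transmission were mostly lower in AICD cells. Of 19 detected GABA and glycine genes 15 were lower, 7 at least 2-fold, and 2 at least 2-fold higher, with a median of -0.60. Gad1, which makes GABA, was at 0.82 in vector and -2.05 in AICD cells, a difference of -2.88, and Gad2 at 0.09 and -1.03 (-1.12). The vesicular transporter of both transmitters, Slc32a1, was at 1.71 and -1.60, a difference of -3.31. The glycine transporter Slc6a5 was at -0.33 and -4.23, a difference of -3.91. The uptake transporter genes Slc6a9 and Slc6a11 were closer, with differences of -0.06 and 0.19. Receptor subunits were on both sides: Gabrb2 was lower (-2.20), with other probes between -2.52 and -0.02, and Gabrg1 at least 8.68-fold lower, while Glra2 was higher by 2.14.

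Glutamate genes had a median of -0.42 over 18 detected members (-0.22 with normexp correction), with 1 higher and 1 lower by 2-fold or more. Gria1, an AMPA receptor subunit, was at 1.69 and -0.78 (-2.47, and -1.15 on another probe), whereas the vesicular transporter Slc17a6 was at 2.51 and 2.14 (-0.37). Voltage-gated channels had a median of -0.36 over 23 (-0.11 over members detected on all 6 arrays), with Kcna1 at -1.73 and -5.47 (-3.74) and Kcns3 at -2.61 and -0.16 (2.45). Peptide and monoamine genes took no common side, and their median of -0.03 was 0.01 with quantile normalization, 0.11 with normexp correction, 0.27 with no filter on detection and 0.36 with bounds. Ddc, an enzyme of dopamine and serotonin synthesis, was higher by 2.93, and Adcyap1, the precursor gene of the neuropeptide PACAP, was lower (-3.01).

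Axon guidance genes had a median of -0.16 over 41 detected members (0.01 over those detected on all 6 arrays), 2 higher and 6 lower by 2-fold or more. The ephrin receptor gene Epha3 was at -0.24 and -3.72 (-3.48), the netrin receptor gene Dcc at 3.85 and 2.12 (-1.73), and Ephb1 at -0.86 and 1.43 (2.29).

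Among transcription factors that pattern the neural tube, 4 were among the 15 genes with the highest differences, and none was among the 15 lowest. Of 24 detected dorsoventral genes 8 were higher and 5 lower by 2-fold or more, and the median was 0.36 (0.87 over members detected on all 6 arrays and 0.53 with no filter on detection). Nkx6-1, a factor of ventral progenitors, was at -2.85 in vector and 2.35 in AICD cells, a difference of 5.19. Its relative Nkx6-2 was at -2.20 and 3.06, a difference of 5.25. When undifferentiated, Nkx6-2 was at 1.91 in vector and 3.21 in AICD cells, so its differentiated AICD signal was near the undifferentiated one. Dbx1, which marks progenitors of the intermediate spinal cord, was at -1.65 and 3.15, a difference of 4.80. On the differentiated arrays these factors lay below 0 in vector cells and between 2 and 4 in AICD cells. Gata3 and Gata2, which are used by V2b interneurons and by several other cell types, were higher by 5.13 and 2.38. In undifferentiated cells Gata3 already differed by 3.96, and Gata2 was at -3.07 in vector and -0.33 in AICD cells. Olig2, a factor of motor neuron progenitors, was detected in AICD cells only, at least 3.56-fold higher, as was the motor neuron factor Mnx1, at least 5.42-fold.

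Several factors of the dorsal neural tube were lower, and others were not. Msx3, which marks the dorsal tube, was at 0.68 in vector and -2.96 in AICD cells, a difference of -3.64. Pax3, a factor of dorsal progenitors and neural crest, was at -0.27 and -3.24, a difference of -2.97. Msx1 was lower (-2.23), Gsx2 (-2.36) and Zic1 (-1.96), and Pax7 was detected in vector cells only, at least 2.18-fold lower. Olig3, also a dorsal factor, was higher by 2.35, while Msx2 (0.96), Zic2 (0.28) and Pax6 (0.87) were under 2-fold apart. The floor plate genes Foxa2 and Foxa1 were detected in vector cells only, at least 2.49-fold and 3.59-fold lower, and the gene for their inducer Shh was not analysed here.

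Of 36 detected proneural and neuronal factors, 7 were higher and 1 lower by 2-fold or more, with a median of -0.04. Dlx1 and Dlx2, homeobox factors of forebrain GABA neurons, were at -3.78 and -1.90 in vector cells and at -0.13 and 1.53 in AICD cells, differences of 3.65 and 3.43. Dlx5 was detected in AICD cells only, at least 10.7-fold higher. These Dlx genes were thus higher on the array where Gad1 was lower. Isl1 and Isl2, LIM homeobox factors of motor and sensory neurons, were higher by 2.78 and 2.08, and Bhlhe22 by 2.60, with 2.18 on another probe. Nhlh2, a basic helix-loop-helix factor of young neurons, was at 0.16 in vector cells and not well above background in AICD cells, at least 67.6-fold lower, and the proneural factor Neurog2 was lower (-1.20).

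Neural progenitor genes had a median of 0.10 over 22. Nes, an intermediate filament of progenitors, was at 3.12 and 3.84 (0.72), and Fabp7, a radial glia lipid carrier, at 5.93 and 5.62 (-0.31). Lhx2 was higher by 2.58 and Sox1 by 1.17, and Nr2e1 was detected in AICD cells only, at least 13.5-fold higher. Hes5 was the member of this list on the far lower side.

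**Figure D3:**
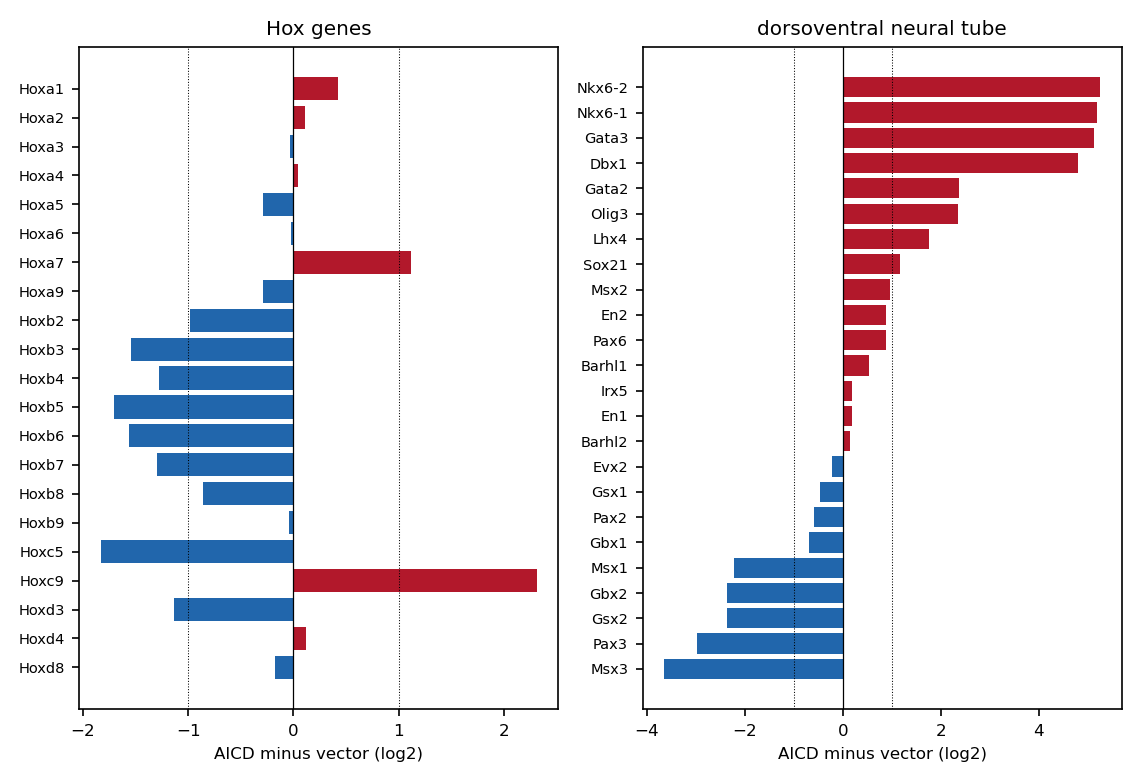
Bars give the difference in normalized log2 signal, AICD minus vector, for each Hox gene (left) and dorsoventral neural tube gene (right) detected on both differentiated arrays; dotted lines mark 2-fold. All 8 detected genes of the HoxB cluster lie below 0, and Nkx6-2 at 5.25 and Msx3 at -3.64 bound the right panel.

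Hox genes, which give cells their position along the body axis and respond to retinoic acid, differed by cluster. Of 21 detected genes 2 were higher and 7 lower by 2-fold or more, and the median was -0.29 (-0.04 over members detected on all 6 arrays and -0.02 with no filter on detection). All 8 detected HoxB genes were lower, 5 of them at least 2-fold, with a median of -1.29. Hoxb5 was at 4.59 in vector and 2.88 in AICD cells (-1.71), Hoxb6 at 5.11 and 3.54 (-1.57), and Hoxb3 at 2.08 and 0.54 (-1.54). Hoxb9, at the other end of the detected run, was at 3.22 and 3.18 (-0.04). Thus the HoxB genes stayed clearly detected in AICD cells. The 8 HoxA genes had a median of 0.01, with Hoxa5 at 2.53 and 2.24 (-0.29) and Hoxa7 the member farthest apart (1.11). In the HoxC cluster Hoxc5 was lower (-1.83) and Hoxc9 higher by 2.31. Hoxb13, the most posterior HoxB gene, was detected in AICD cells only, at -2.38, at least 12.4-fold higher. Its signal was at -5.39 in vector and 0.88 in AICD cells when undifferentiated, and at -6.25 and -0.53 when aggregated.

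Retinoid genes gave values on both sides, with a median of 0.12 over 18 detected members. Aldh1a2, the main retinoic acid synthesising enzyme of the embryo, was at -0.54 in vector cells and not well above background in AICD cells, at least 41.6-fold lower. Aldh1a7 was higher by 3.34 and Aldh1a1 by 1.37, and the retinoic acid degrading enzymes Cyp26b1 and Cyp26a1 were higher by 2.01 and 1.25. Nr2f1, an orphan receptor induced by retinoic acid, was lower (-1.48).

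The interstitial matrix was the list with the lowest median. Of 43 listed genes 35 were measured and 31 detected on both arrays, 17 at least 2-fold lower and 2 at least 2-fold higher. The median difference was -1.09, and -1.20 with the genes detected on 1 array at their bound. Col3a1, the chain of type III collagen, was at 3.72 in vector and -4.14 in AICD cells, a difference of -7.86. Col1a2, a chain of type I collagen, was at 3.59 and -1.39, a difference of -4.98. Its partner Col1a1 was at 0.17 in vector cells and not well above background in AICD cells, at least 68.2-fold lower. Collagen I and III genes were thus near or above the 75th percentile on the vector array alone. Decorin (Dcn), a small proteoglycan that binds collagen, was at 0.09 and -4.58 (-4.67), periostin (Postn) at 0.12 and -4.33 (-4.45), and Col14a1 at 0.63 and -4.18 (-4.81). Lumican (Lum) was at least 41.4-fold lower and Col6a1 at least 16.9-fold lower.

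Not all matrix genes followed. Sparc, a matrix glycoprotein also made by embryonal carcinoma cells, was at 3.15 and 3.35 (0.19), fibulin 1 (Fbln1) at 1.66 and 1.74 (0.08), and fibronectin (Fn1) at 1.05 and 0.68 (-0.37). Thrombospondin 1 (Thbs1) was higher by 2.26 and the protease inhibitor Timp1 by 1.15. Basement membrane genes had a median of -0.03 over 17, which was 0.06 with all probes of a gene averaged. Within them Lama5 was at -1.72 and 0.17 (1.89). Nid1, the linker between laminin and collagen IV, was at 0.85 in vector cells and not well above background in AICD cells, at least 110-fold lower. It was also at least 66.5-fold lower when undifferentiated and at least 34.5-fold lower when aggregated.

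Regulators and receptors of mesenchymal cells were lower alongside the matrix. Of 22 detected on both arrays, 9 were at least 2-fold lower and 2 at least 2-fold higher, 6 more were at least 2-fold lower by their bound, and the median was -0.36, or -1.02 with bounds. Snai2, a repressor of epithelial genes, was at -0.12 in vector and -5.40 in AICD cells (-5.28), and the homeobox factor Prrx1 at -1.02 and -4.86 (-3.83, and -4.64 to -4.50 on other probes). Pdgfrb, a PDGF receptor found on mural cells, was at 0.78 in vector cells and at least 104-fold lower in AICD cells. The surface antigen Thy1 and the collagen receptor Ddr2 were at least 39.2-fold and 29.4-fold lower. Zeb1 (-0.33), Zeb2 (-0.14) and the cadherin Cdh11 (-0.15) were close in both lines. Neural crest genes shared some of these members, and of 15 detected 7 were at least 2-fold lower and 2 at least 2-fold higher, with a median of -0.90 (-0.26 with no filter on detection). Twist1 was lower (-2.32), Ednrb (-1.83) and Tfap2b (-1.46).

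Of 11 listed markers of fibroblast-like cells, 11 were well above background on the vector array and 7 on the AICD array, and the sum of their signals, each relative to the 75th percentile, was 42.5 and 9.34. Both sums hold Acta2, a smooth muscle actin, at 3.08 and 2.81 (-0.26), whose other probe differed by -4.08. Over the 8 neuron markers the same sums were 186 and 140, and over the 4 measured pluripotency markers 4.66 and 17.2. Gfap and Aqp4, which define astrocytes, were not analysed here. Of the 7 glial markers 5 were measured, with differences from -0.19 (S100b) to 1.34 (Aldh1l1) in those detected on both arrays. In the longer astrocyte and oligodendrocyte list, 3 of 18 detected genes were higher and 6 lower by 2-fold or more. The part of these marker shifts in the gene list values above was not tested.

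**Figure D4:**
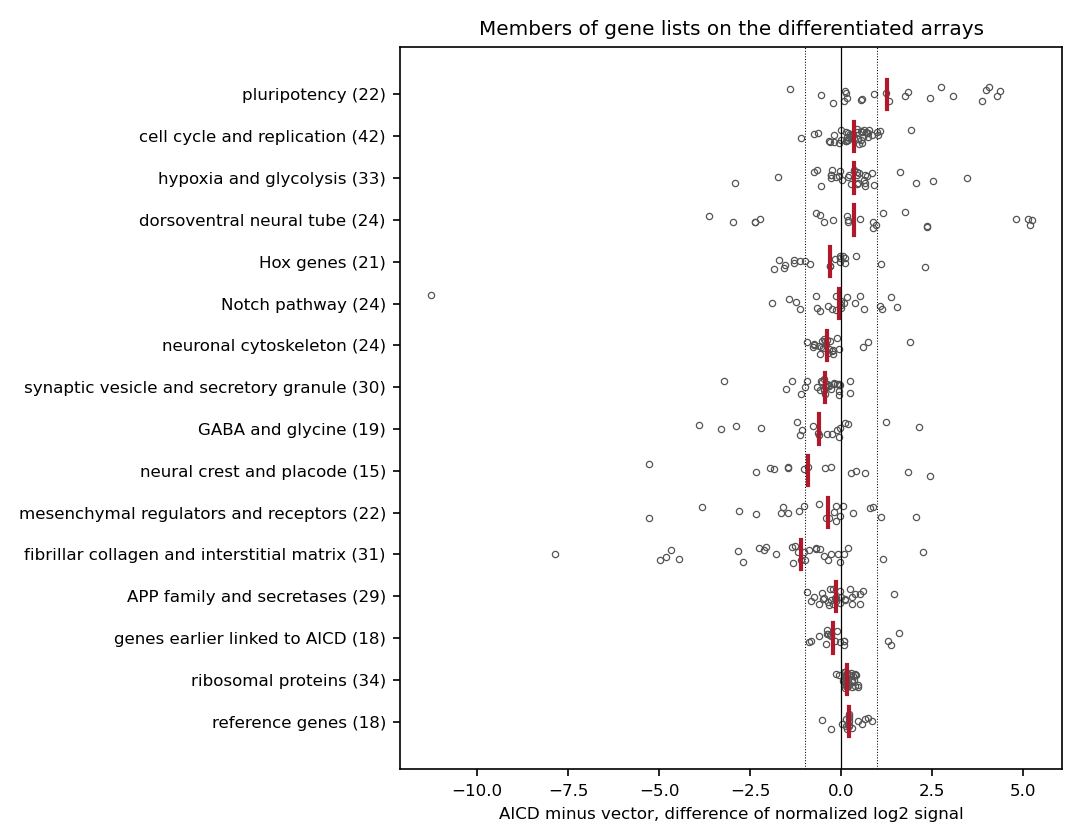
Open circles are single genes detected on both differentiated arrays and red bars are list medians, on the x axis as AICD minus vector in normalized log2 signal, with the number of genes in parentheses and dotted lines at 2-fold. The pluripotency median is at 1.28, the interstitial matrix median at -1.09, and the APP family members lie between -0.93 and 1.45.

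Growth factor genes had no common side (median 0.00 over 39, and -0.04 with normexp correction), yet held some of the larger differences. Igf2, the imprinted fetal growth factor, was at 5.61 in vector and 0.97 in AICD cells, a difference of -4.64, with -4.89 on another probe. Igf2r, its clearance receptor, was at 0.26 and -5.46, a difference of -5.72. Igf1 was at -2.26 and -5.51, a difference of -3.25. The receptor gene Igf1r was at 2.05 on both arrays (-0.01). Imprinted genes as a list had a median of 0.08 (0.00 with normexp correction), with Zrsr1 lower (-6.14), Asb4 higher by 2.72 and Peg10 by 1.30. Nap1l5 was detected in AICD cells only, at least 17.3-fold higher. When undifferentiated, Zrsr1 was at least 41.7-fold lower.

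In the Wnt list, 30 detected genes had a median of -0.15, 7 higher and 8 lower by 2-fold or more. The secreted antagonists Sfrp2 (0.13 and 3.15) and Sfrp1 (1.34 and 2.99) were higher by 3.01 and 1.65. The target Sp5 was detected in vector cells only, at least 11.5-fold lower, and among ligands Wnt4 was lower (-2.89), Wnt3 (-2.13), and Wnt7a higher by 2.07. The receptor Fzd10 was at 4.41 and 2.62 (-1.79). BMP, TGF-beta and hedgehog genes had a median of -0.04 over 25, and 0.09 over members detected on all 6 arrays. Bmp4 was lower (-2.33) and Inhba (-2.26), and follistatin (Fst), which blocks activins, was higher by 1.88.

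The genes of APP, its relatives and its processing were close between the lines. All 29 measured members were detected, 1 was at least 2-fold higher, 0 were at least 2-fold lower, and the median was -0.15. App was at 2.86 in vector and 2.03 in AICD cells, a difference of -0.82. No source used here gives the position of its probe relative to the expressed fragment, and whether the value includes the transgene was not tested. The relatives Aplp1 and Aplp2 differed by -0.62 and -0.14. The gamma-secretase subunits Psen2 (0.12), Psenen (-0.02), Ncstn (0.01), Aph1a (0.31) and Aph1b (-0.22) lay within 0.31 of 0. Bace1, the beta-secretase, differed by -0.29 and the alpha-secretases Adam9 and Adam17 by 0.24 and 0.29. The AICD adaptors Apbb1 (-0.49), Apbb2 (-0.93) and Apbb3 (-0.34) and the acetyltransferase Kat5 (-0.02) were each under 2-fold apart. Apoe, the lipoprotein gene that carries the main risk alleles of late-onset Alzheimer disease in people, was at 0.31 and 1.77, 1.45 higher.

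Genes linked to AICD in earlier work had a median of -0.21 over 18 detected members. The 3 that were higher by 2-fold or more were Ptch1, the hedgehog receptor (-5.89 and -4.29, 1.60 higher), Hes1 (1.38) and Egfr (-1.60 and -0.32, 1.28 higher, with 0.57 to 1.03 on other probes). None of the 18 was at least 2-fold lower on the probe used. Gsk3b differed by -0.38, Lrp1 by -0.42, Cd82 by -0.61, Igfbp3 by -0.88 and Tagln by -0.36. The other probe of Tagln differed by -1.10, which is past 2-fold. Mme differed by -0.10, Trp53 by 0.09, Cyp46a1 by 0.08, Stub1 by 0.07 and Tpm1 by -0.16. Aqp1 was detected in vector cells only, at least 2.67-fold lower.

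Medians of the remaining lists lay between -0.36 and 0.22, and several of these lists held single genes that were far apart. Lipid genes had a median of 0.14 over 33, with the lipid droplet coat Plin2 at -3.12 and 1.76 (4.88) and the sterol carrier Gramd1a at -0.55 and 3.97 (4.53). Lysosomal genes had a median of 0.08 over 37, with the peptidase Ctsc higher by 4.18 and the mannosidase Manba by 2.63. Endoplasmic reticulum chaperone and stress genes had a median of 0.13 over 36, with Sil1 lower (-2.19) and Hmox1 higher by 1.43. Interferon and antigen presentation genes had -0.14 over 20, and 0.06 over members detected on all 6 arrays, with the immunoproteasome subunit Psmb10 lower (-2.44) and H2-K1 higher by 1.02. The p53 and apoptosis list had 0.05 over 32 (-0.01 with normexp correction), with Plk2 lower (-2.20) and Pmaip1, the gene of Noxa, at least 11.4-fold higher. Astrocyte and oligodendrocyte genes had -0.36 over 18, but 0.11 over members detected on all 6 arrays and 0.03 with no filter on detection. Of the 18, 3 were higher and 6 lower by 2-fold or more, with Slc1a3 higher by 1.76 and Nfix lower (-2.52).

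Cardiac and skeletal muscle genes had a median of -0.12 over 18 (0.01 with normexp correction), with Nkx2-5 lower (-3.29) and the troponin gene Tnnt1 higher by 2.89. The smooth muscle and YAP target list had -0.22 over 16, with Ccn2 detected in AICD cells only, at least 40.5-fold higher. Ccn2 already differed by 6.47 when undifferentiated. Endoderm genes had 0.22 over 12, and endothelial and blood genes -0.16 over 10. Only 6 mesoderm genes were detected on both arrays, with a median of -0.23, and 0.13 with no filter on detection.

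Among the 15 highest and 15 lowest genes, several belonged to none of the groups above. Ptprt, a receptor tyrosine phosphatase of neurons, was at -4.28 in vector and 2.57 in AICD cells, a difference of 6.84, or 115-fold. Tagln3, a neuronal actin-binding protein of the transgelin family, was at -2.90 and 3.40 (6.31, and 6.19 on another probe). Alkbh3, an alkylation repair enzyme, was higher by 5.44, Slc35d3 by 5.28, Esx1 by 4.90, Foxd4 by 4.83 and Tbx1 by 4.44. When undifferentiated, Alkbh3 was at least 70.1-fold higher, Esx1 differed by 5.07, Tbx1 by 2.49, Slc35d3 by 1.11 and Foxd4 by -3.43. Ccbe1 and Igfbpl1 were higher by 4.79 and 4.75, with 4.33 and 4.92 on their other probes. On the lower side, the adhesion molecule Vcam1 was at 1.29 and -4.04 (-5.33), the mitochondrial carrier Sfxn3 at 1.09 and -4.02 (-5.11), and the cytokine receptor subunit Csf2ra at 3.92 and -0.52 (-4.44). The small GTPase Rab33a was lower (-4.72) and the acid-sensing channel Asic2 (-4.68).

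Genes detected on 1 array alone were counted by a lower bound against the detection limit of the other array. By that bound 131 genes were higher and 119 lower by 2-fold or more. Beyond those already given, the largest bounds on the higher side were those of Sp8, a factor of forebrain and limb (0.16 in AICD cells, at least 71.7-fold), the carboxypeptidase Cpb1 (at least 52.9-fold), Il20ra (at least 25.5-fold), Cidea, a lipid droplet protein (at least 22.5-fold), the coagulation factor F10 (at least 20.3-fold) and Gypc (at least 17.4-fold). On the lower side they were those of Slc10a6, a carrier of steroid sulfates (2.33 in vector cells, at least 304-fold), Syt13 (1.27, at least 146-fold) and Lrrc17 (at least 48.0-fold). The bounds set these levels against the limit and do not say that a transcript was absent.

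The 2 earlier states place these differences in the course. Of the genes at least 2-fold apart, 511 on the higher and 339 on the lower side were detected on all 6 arrays. Genes not detected on every array, Hes5, Dtx1 and Nid1 among them, are outside the counts that follow. Among the 511, 240 (47.0%) were under 2-fold apart in both earlier states, 121 were also 2-fold higher when aggregated but not before, 82 in all states and 35 when undifferentiated but not when aggregated. Among the 339, the corresponding counts were 125 (36.9%), 50, 76 and 47. The remaining 33 higher and 41 lower genes were at least 2-fold apart in the opposite direction in at least 1 earlier state. Most genes were under 2-fold apart in the earlier states. When undifferentiated, 528 of 12555 detected genes were higher and 516 lower by 2-fold or more. When aggregated the counts were 505 and 374 of 11990. Genes under 2-fold apart in both earlier states were the largest class on both sides, although some of them were close to 2-fold apart earlier.

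On the higher side, that class included Slc2a3, with differences of 0.72, -0.53 and 3.46 along the course (undifferentiated, then aggregated, then differentiated), Fndc3c1 (-0.05, 0.59 and 3.41), Car14, a membrane carbonic anhydrase (-0.26, -0.24 and 3.39), Lin28a (-0.70, 0.68 and 3.08) and Prtg, protogenin of the early neural tube (-0.57, 0.33 and 3.07). In vector cells Car14 was at 2.31 when aggregated and -1.74 when differentiated, and in AICD cells at 2.07 and 1.65. Slc2a3 behaved alike, at 5.84 and 1.15 in vector cells and 5.31 and 4.60 in AICD cells. For these genes the signal was lower after replating in vector cells and close to its aggregated value in AICD cells. Lin28a differed from them, at -2.32 and -2.06 in vector cells and -1.64 and 1.02 in AICD cells.

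On the lower side the class included Dcn (-0.25, 0.29 and -4.67), Ch25h, the cholesterol 25-hydroxylase (0.42, 0.45 and -3.18), Col6a2 (-0.08, 0.91 and -2.68), Igsf21 (-0.92, -0.42 and -2.57) and the elastic fibre gene Mfap4 (0.58, -0.06 and -2.10). Dcn was at -1.52 when aggregated and 0.09 when differentiated in vector cells, and at -1.23 and -4.58 in AICD cells. Genes apart at the end of aggregation as well included Gdf3 (5.79 when aggregated), Nr0b1 (4.90), Otx2 (4.16) and Nkx6-1 (1.36) on the higher side. On the lower side they included Col1a2 (-2.05), Prrx1 (-3.04) and Wnt4 (-2.73). Ptprt, Plin2, Gramd1a and Ctsc were at least 2-fold higher in all states, and Igf2r, Slc32a1, Nkx2-5, Sfxn3, Csf2ra and Snai2 at least 2-fold lower.

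**Figure D5:**
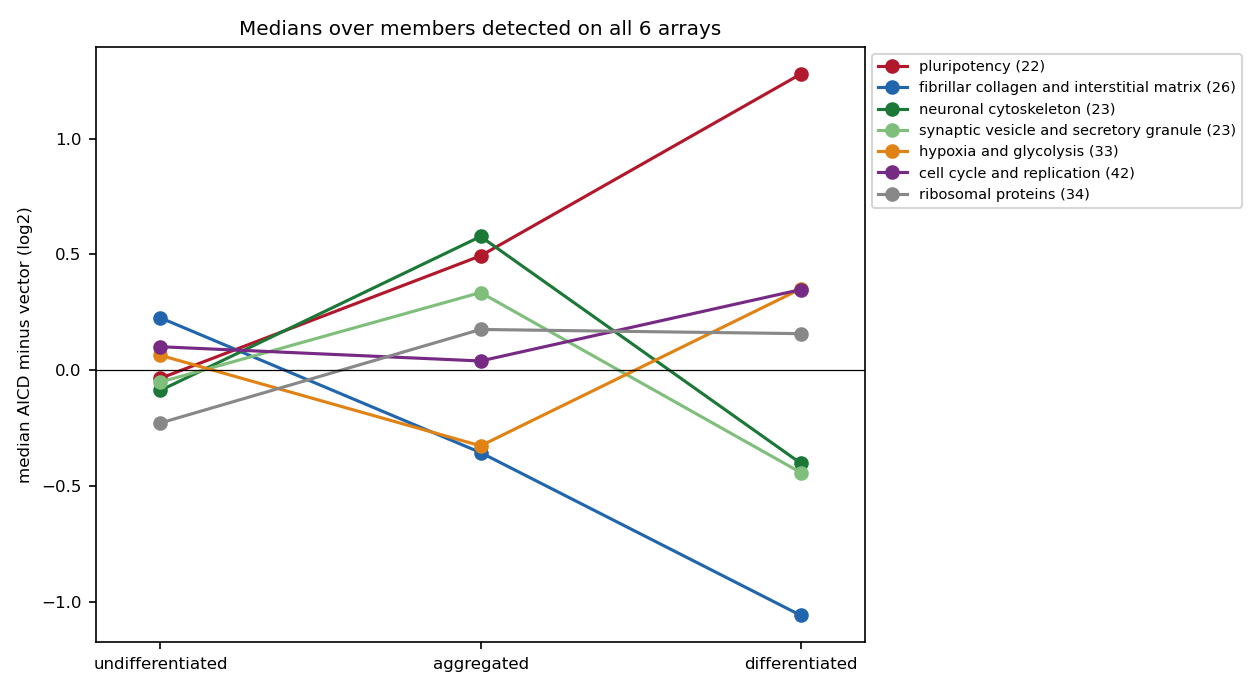
Median difference in normalized log2 signal, AICD minus vector (y axis), for 7 gene lists in the undifferentiated, aggregated and differentiated state (x axis), over the members detected on all 6 arrays (number in parentheses), 1 array per line and state. The neuronal cytoskeleton median moves from 0.58 when aggregated to below -0.3 when differentiated, and the pluripotency median reaches 1.28.

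More genes differed between aggregated and replated cells in the vector line than in the AICD line. Of 11795 genes detected on the 4 arrays concerned, 1290 (10.9%) were higher and 1337 (11.3%) lower by 2-fold or more on the differentiated than on the aggregated vector array. In the AICD line the counts were 757 (6.42%) and 503 (4.26%). The median step over all genes was -0.11 and -0.09. These steps use the same differentiated arrays as the comparison of the lines, so they restate it from another side and are not a separate measurement of it.

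By gene group, the neuronal cytoskeleton list had a median step of 2.01 for vector and 1.19 for AICD cells over 23 genes, and the synaptic list 1.85 and 0.84 over 27. In the aggregated state the AICD line had been the higher, with list differences of 0.58 and 0.35. Syt1, the calcium sensor of synaptic vesicles, shows this in a single gene, with a difference of 1.73 when aggregated and -0.19 when differentiated, and Stmn2 had 1.41 and -0.34. Cell cycle genes had median steps of -1.19 and -0.72 over 42, with 28 of them at least 2-fold lower for vector and 7 for AICD cells. Hypoxia and glycolysis genes had -2.81 and -1.61 over 33. Interstitial matrix genes had 0.75 for vector and -0.29 for AICD cells over 28. For the pluripotency list, the steps were -0.28 and 0.16 over 22, and for ribosomal proteins -0.77 and -0.79 over 34.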

How the data were processed

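RNA of 6 P19 samples, 1 for each line and state, was hybridised to 1-colour Agilent mouse arrays. Spot intensity was extracted by the authors with Feature Extraction 10.1.1.1, per the file headers, and the deposited processed intensity is already background-corrected. Spots of a probe were averaged here on the linear scale, leaving out spots flagged as outliers. The log2 of this mean was taken, minus log2 of the array's 75th percentile over non-control spots. Each gene was read from its brightest probe (by the mean of all 6 arrays). Only probes well above background on 2 or more arrays and with a value on all 6 were eligible. Symbols came from the RefSeq accessions (GRCm38.p6). The authors' deposited score per probe, a centred log2 value with negative entries written as minus reciprocals and small ones blank, was used as an alternative. Its scale and centring were worked out here from the scanner values, and its direction was taken from the scanner output.

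With 1 array for each line and state, no test was run: genes were counted at 2-fold and 10-fold, and gene lists described by counts and medians. A gene detected on 1 array was given a bound, its signal over the higher of the gene's own signal and the lowest well-above-background signal on the other array. The counting was tested on simulated data. Genes named were drawn from the 15 highest and 15 lowest differences, up to 8 bounds a side, up to 8 members of each list with the largest difference or bound, the 8 largest of each state pattern, all APP and AICD list members and the cell type markers. Other list members are given as examples and were chosen after their values were seen. Members and lists were chosen with earlier results of these data known. Alternatives were 3 scalings, normexp correction, probe averaging and 3 detection or brightness filters. Python 3.11.15, numpy 2.4.6 and pandas 2.3.3 were used. Some results are not reported here.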

Additional observations from a re-analysis of the deposited data

Results flagged for a closer look

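Genes and lists are given here whose difference had the opposite sign in an earlier state. Each state has 1 array per line, so the difference between states was not tested.

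Higher in differentiated AICD cells, but lower when undifferentiated, were Foxd4 (4.83 against -3.43), Map3k5 (2.21 against -1.46), Ramp2 (2.01 against -1.78), Cebpd (1.97 against -1.67) and Arhgap27 (1.84 against -1.88). Higher when differentiated, but lower when aggregated, were Thbs1 (2.26 against -2.19), Emx1 (1.92 against -2.43) and Smtnl2 (1.75 against -1.24).

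Lower in differentiated AICD cells, but higher when undifferentiated, were Col3a1 (-7.86 against 2.03), Igf2 (-4.64 against 1.78), Fgf12 (-4.38 against 1.29), Col8a1 (-2.99 against 3.63), Ccdc80 (-2.64 against 1.17), Col26a1 (-2.54 against 3.99), Cdh13 (-2.21 against 1.24) and Cavin2 (-2.10 against 3.33). Of these 8 genes 3 encode collagens.

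Of 40 lists, 14 had medians of opposite sign when differentiated and when aggregated. Both medians were at least 0.3 from 0 for the neuronal cytoskeleton (-0.39 against 0.58), synaptic vesicles and granules (-0.43 against 0.35), voltage-gated ion channels (-0.36 against 0.39) and hypoxia and glycolysis (0.35 against -0.33). The members detected can differ between states, with 23 ion channels when differentiated and 19 when aggregated. Over the 11 ion channels detected on all 6 arrays the medians were -0.11 and 0.23, both less than 0.3 from 0.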

How the results depend on the processing

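The medians of pluripotency, interstitial matrix, mesenchymal regulators, neuronal cytoskeleton, synaptic, cell cycle, glycolysis, GABA and crest genes kept their sign under all 7 alternatives run for lists, while other lists, the astrocyte list among them, took either sign, as given beside them. With normexp background correction, added after seeing the data, 346 genes were at least 2-fold higher and 320 lower, 20 and 17 at least 10-fold, and the medians were 0.70 for pluripotency, -0.47 for GABA and glycine, -0.44 for neural crest, -0.24 for mesenchymal regulators and 0.17 for hypoxia and glycolysis. With probes averaged, pluripotency was 1.13, neural crest -0.77 and mesenchymal regulators -0.47. With no filter on detection, 17165 genes gave 1071 higher and 889 lower, 100 and 111 at 10-fold, with pluripotency 0.99, GABA and glycine -0.78, neural crest -0.26 and mesenchymal regulators -0.79. On all 6 arrays, 11481 genes gave 511 and 339, 21 at least 10-fold lower, and mesenchymal regulators -0.26. Among 7063 bright genes, 201 were higher and 186 lower, 23 at least 10-fold lower. In the authors' deposited values, limited to 931 genes, 37.1% of the 2-fold genes were higher (103 against 175). Over the 12282 genes of the main setting the share was 53.8% (567 against 486). The main values were not counted over the 931 genes alone, so the shares concern different genes. With direction taken from the scanner output, 99.9% of deposited values on the vector array and 99.8% on the AICD array lay within 0.1 of the centred scanner values. At 10-fold, quantile normalization gave 43 higher and 48 lower. The filters change how many genes enter, and the causes of the differing counts and of the normexp values were not tested. No paired analysis was possible because the differentiated state has 1 array of each line, and no replicate could be left out. Normexp on mean signals was not run, since that column is not in the files used here; median signals were taken. Dim genes are limited by signal over background, and a difference between the 2 samples has no culture-level error.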
